A study of Caenorhabditis elegans with 2 samples.

Results

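The hedgehog-related and patched-related genes of Caenorhabditis elegans were followed on 2 spotted 2-colour microarrays. Members were the genes whose annotated symbol began with grl-, grd-, wrt-, hog-, qua-, ptr- or ptc- and a number, taken only from probes assigned to 1 gene. This gave 69 genes out of 14777 measured on both arrays. They comprised 23 ground-like (grl), 13 groundhog (grd) and 9 warthog (wrt) genes, hog-1, qua-1, 21 patched-related (ptr) genes and ptc-1. RefSeq lists 85 protein-coding genes with these prefixes, and the other 16 were not analysed here, among them grl-5, grl-16, wrt-5, ptr-22 and ptc-3.

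Each array set messenger RNA of L2-stage glp-4 larvae, prepared separately as preparation 1 and preparation 2, against messenger RNA of wild-type worms labelled as a mixed reference, which both arrays shared. Mutation of glp-4 is known to keep the germ line from proliferating at raised temperature. No value of the glp-4 gene is given here, so the genotype label is not checked by it. The sources used here do not give the glp-4 allele, the growth temperature, the cultures behind the preparations or what was mixed in the reference. Genotype and stage therefore differ together between the channels and cannot be told apart, and with whole worms fewer cells of a type and less RNA per cell cannot be told apart either.

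Vertebrate and fly Hedgehog proteins are secreted signals that are cut and lipid-modified by their own C-terminal Hog (Hint) domain and bind Patched, a membrane protein with a sterol-sensing domain. C. elegans has no classical Hedgehog or Smoothened but has a large set of secreted proteins named by their N-terminal domains (Warthog, Groundhog, Ground-like and Quahog), some of which carry the Hog domain, and an expanded set of Patched and Patched-related proteins. In the worm these genes are known mainly from epidermal and glial cells that face the cuticle, and several are required for molting.

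Values are log2 ratios, read as likely glp-4 L2 over the reference. No label states the direction. The sample descriptions name glp-4 L2 before the reference, although it is the second channel, and the yolk and major sperm protein genes, which belong to adults and sperm, had medians below 0 on both arrays (-7.16 and -6.80 for 3 yolk genes, -3.97 and -2.86 for 30 sperm protein genes on preparations 1 and 2). This reading is the basis of every sign below, so those genes are no finding. Each mean ratio was tested against 0 with limma across the 14777 genes, with Benjamini-Hochberg adjustment and a threshold of 0.05. Errors are SD over the 2 arrays. The arrays correlated with a Pearson r of 0.529 across genes, and their number limits the precision. On the preparation 1 and 2 arrays the median of all genes was 0.10 and 0.02.

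All members that passed the test were ground-like genes. With 2 arrays, a member that did not pass is not shown to equal the reference. The genes grl-20, grl-17 and grl-9 were lower in glp-4 L2, and the other 66 members did not pass the test. Thus 3 of 69 members were lower, while 1.50% of all genes were. No member was higher (0 of 69 by limma), where 0.365% of all genes were higher. At an unadjusted p under 0.05, 11 members were lower and 8 higher, where 1618 and 1150 of all 14777 genes were. In either direction 19 of 69 members passed, where 18.7% of all genes did. Of the 23 grl genes, 6 were lower and 5 higher at this level. At least 2-fold lower on both arrays, with no test, were 7 members (7.35% of all genes) and at least 2-fold higher on both were 5 (4% of all genes).

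The gene grl-20 had a log2 ratio of -3.24 on both arrays, a 9.43-fold lower level in glp-4 L2 (limma adjusted p = 0.0322). It ranked 137th from the lowest mean of all genes. The identical values leave no spread of its own between the arrays, so its standard error (0.39) comes from the prior that limma shares across genes. The gene grl-17 was at -3.29 on preparation 1 and -2.47 on preparation 2 (mean -2.88 ± 0.58, 7.36-fold lower, limma adjusted p = 0.0463). It was read by 2 probes, at -2.98 and -3.61 on preparation 1 and -1.67 and -3.27 on preparation 2, so both probes lay below 0 on both arrays. The gene grl-9 was at -2.72 and -2.51 (mean -2.61 ± 0.15, 6.11-fold lower, limma adjusted p = 0.0469). The calls of grl-17 and grl-9 sat close to the threshold. When ratios beyond 5 log2 units were set to 5, they had limma adjusted p of 0.0619 each, and grl-9 had 0.0542 among genes with 1 probe only.

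Just short of the threshold was grl-3, at -3.02 on preparation 1 and -2.05 on preparation 2 (mean -2.54 ± 0.69, limma adjusted p = 0.0635). It was called lower when each array was centred on its median, after quantile normalization and after correction for gene span. The gene grl-23 was at -2.24 and -1.75 (mean -2.0 ± 0.35, limma adjusted p = 0.085), and its 2 probes lay within 0.3 of each other on each array. The gene grl-10 was at -1.05 and -1.59 (limma adjusted p = 0.190). These 6 genes were the ground-like genes at least 2-fold below the reference on both arrays. Smaller ratios below 0 on both arrays were those of grl-19 (-1.07 and -0.55), grl-22 (-0.82 and -0.31) and grl-28 (-0.83 and -0.11).

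**Figure D1:**
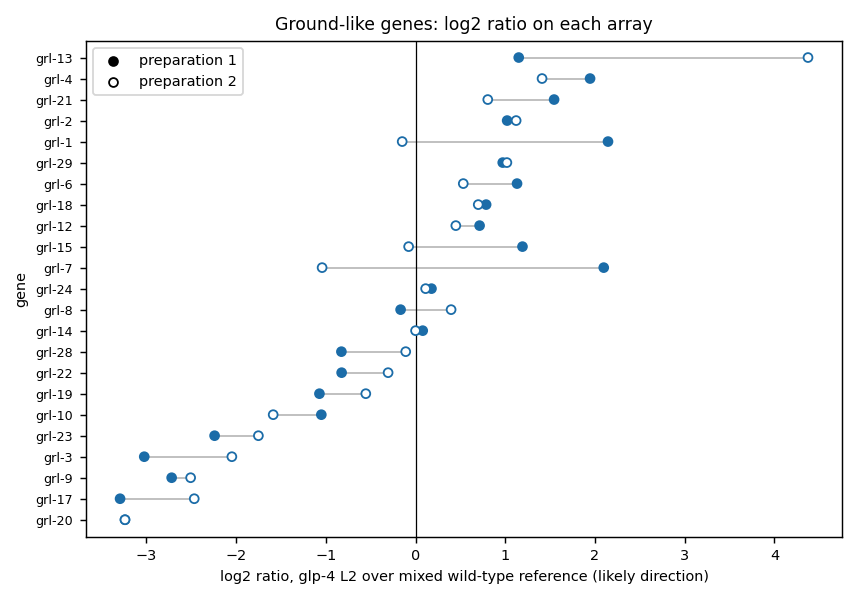
Log2 ratio (x axis, likely glp-4 L2 over reference) of each of the 23 grl genes (y axis, ordered by mean), with a filled point for the preparation 1 array, an open point for preparation 2 and a line joining them. The lowest 6 genes lie beyond -1 on both arrays, and grl-13, grl-7 and grl-1 have the longest lines.

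Ground-like genes also stood above 0, with none past the test. The largest mean was that of grl-13, which rested on 1 array, with 1.15 on preparation 1 and 4.37 on preparation 2 (mean 2.76 ± 2.28, limma adjusted p = 0.166). The gene grl-4 was at 1.94 and 1.41 (mean 1.68 ± 0.38, limma adjusted p = 0.124). The gene grl-21, which acts with ptr-24 in fat storage, was at 1.54 and 0.80 (mean 1.17 ± 0.52, limma adjusted p = 0.232). The difference of preparation 1 minus preparation 2 was 0.54 for grl-4, 0.74 for grl-21 and -3.22 for grl-13. The median absolute difference of all genes was 0.635. The gene grl-2, expressed in the excretory duct and pore cells, was at 1.02 and 1.12. The gene grl-18, expressed in socket glia, was at 0.79 and 0.70. Among the other ground-like genes above 0 on both arrays, grl-29 (0.97 and 1.02), grl-6 (1.13 and 0.53), grl-12 (0.71 and 0.45) and grl-24 (0.18 and 0.11) had arrays within 0.6 of each other.

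A few ground-like genes lay on opposite sides of the reference in the 2 preparations. The gene grl-7, whose protein belongs to the cuticle matrix and is cleared by PTR-18, was at 2.10 on preparation 1 and -1.04 on preparation 2. Its 2 probes repeated this, with 2.13 and 2.07 on preparation 1 and -1.19 and -0.89 on preparation 2. The difference of preparation 1 minus preparation 2 was 3.14, the 107th highest of all genes when ordered with its sign. The gene grl-1 was at 2.14 and -0.15, and grl-15 at 1.19 and -0.08. The gene grl-8 ran the other way, at -0.17 and 0.40. The gene grl-14 lay at the level of the reference, with 0.08 on preparation 1 and 0 on preparation 2.

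Over the 23 ground-like genes the median log2 ratio was 0.18 on preparation 1 and -0.08 on preparation 2. The prefix was spread widely around this middle, with 9 genes below 0 on both arrays and 9 above on both. Of all genes, 30.8% were below 0 on both arrays and 36.9% above.

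Groundhog genes lay mostly above the reference, without a call. Of 13 genes, 10 were above 0 on both arrays and 3 below. By limma 0 passed in either direction, where 1.50% of all genes were lower and 0.365% higher. At an unadjusted p under 0.05, 2 were lower and 2 higher, where 1618 and 1150 of all 14777 genes were. The groundhog median log2 ratio was 0.91 on preparation 1 and 0.22 on preparation 2. The highest was grd-14, at 3.29 and 1.38 (mean 2.34 ± 1.35, limma adjusted p = 0.123). The gene grd-6 followed, at 2.79 and 0.22 (mean 1.51 ± 1.82, limma adjusted p = 0.3), and its mean was carried by preparation 1. The gene grd-11, which carries a Hog domain, was at 0.51 and 1.70 (mean 1.10 ± 0.84, limma adjusted p = 0.282).

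At the other end of the groundhog genes, grd-4 was at -3.07 on preparation 1 and -1.31 on preparation 2 (mean -2.19 ± 1.25, limma adjusted p = 0.129). The gene grd-9 was at -0.96 and -1.14 (mean -1.05 ± 0.12, limma adjusted p = 0.246), and grd-7 at -0.47 and -0.43 (mean -0.45 ± 0.03, limma adjusted p = 0.557). These were the 3 groundhog genes below the reference on both arrays. The gene grd-3 was at 0.98 and 1.02, grd-12 at 1.26 and 0.68, and grd-10 at 0.47 and 0.59. Near 0 on 1 of the arrays were grd-1 (0.91 and 0.17), grd-2 (1.32 and 0.06), grd-5 (1.17 and 0.16) and grd-8 (0.03 and 0.63). Of these 4 only grd-8 was the higher one on preparation 2.

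Warthog genes were close to the reference on average and were split by preparation. Of 9 genes, 0 passed limma in either direction, where 1.50% of all genes were lower and 0.365% higher. At an unadjusted p under 0.05, 1 was lower and 0 higher, where 1618 and 1150 of all 14777 genes were. The warthog median was 0.31 on preparation 1 and -0.36 on preparation 2. The gene wrt-8, which takes part in axon guidance, was at 2.39 and 0.28 (mean 1.34 ± 1.49, limma adjusted p = 0.3). The gene wrt-6 was at 1.91 and -0.12 (mean 0.90 ± 1.43, limma adjusted p = 0.444), and wrt-9 at 0.85 and 0.10 (mean 0.48 ± 0.53, limma adjusted p = 0.566). All 3 were lifted by the preparation 1 array.

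The gene wrt-7 was the single warthog gene below 0 on both arrays, at -1.73 on preparation 1 and -0.87 on preparation 2 (mean -1.30 ± 0.61, limma adjusted p = 0.208). It was also the single one with the lower value on preparation 1. Apart from wrt-8 and wrt-9, the others crossed the reference: wrt-1 was at 0.30 and -1.31, wrt-4 at 0.18 and -1.06, wrt-3 at 0.78 and -0.36, and wrt-2 at 0.29 and -0.38. The gene wrt-10 was at 0.31 and -0.36. Its 2 probes were alike on preparation 1 (0.29 and 0.34) and of opposite sign on preparation 2 (-1.44 and 0.71), so its value there is uncertain. The gene hog-1 was at 0.76 and -0.93 (mean -0.08 ± 1.20, limma adjusted p = 0.942). The Quahog gene qua-1, which is required for molting, was at 2.20 and -0.47 (mean 0.86 ± 1.89, limma adjusted p = 0.528). Both crossed the reference in the same way as the warthog genes.

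**Figure D2:**
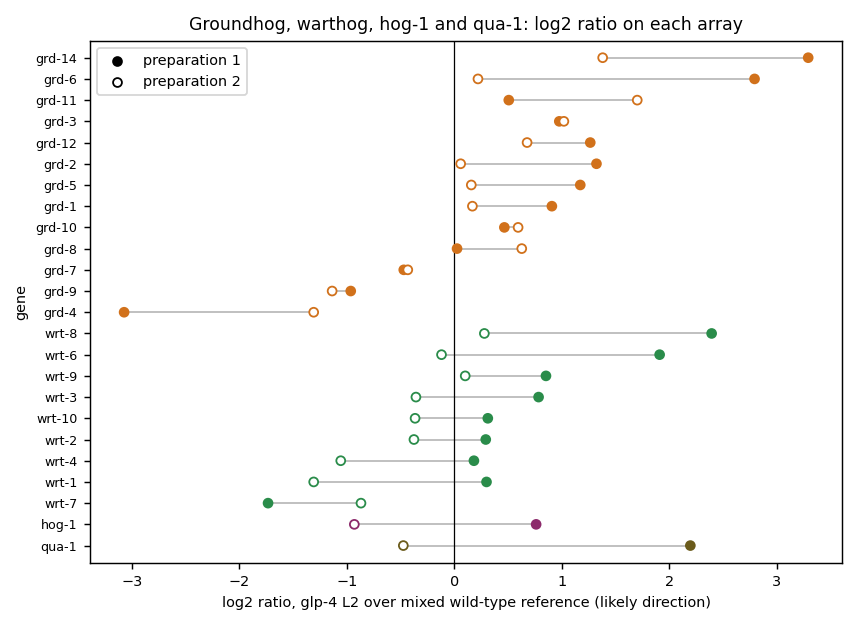
Log2 ratio (x axis, likely glp-4 L2 over reference) of each of the 13 grd and 9 wrt genes, hog-1 and qua-1 (y axis, by prefix and mean), with a filled point for preparation 1 and an open point for preparation 2. Of the grd genes, 10 lie above 0 on both arrays, whereas 6 of the 9 wrt genes, hog-1 and qua-1 lie above 0 on preparation 1 and below 0 on preparation 2.

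The members known to carry a Hog domain are hog-1, qua-1, wrt-1, wrt-4, wrt-6, wrt-7, wrt-8, grd-1, grd-2 and grd-11, and all 10 were measured. Their median was 0.83 on preparation 1 and -0.30 on preparation 2. The 14 warthog and groundhog genes without this domain had medians of 0.62 and 0.13. On preparation 1, 7 of the 10 Hog-domain genes were at least 1 log2 unit higher than on preparation 2, against 4 of those 14 and 18.3% of all genes. Of the Hog-domain genes, 2 were higher on preparation 2 (wrt-7 and grd-11). The classes also differ in their make-up by prefix, and this difference of at least 1 was found for 5 of 9 wrt and 4 of 13 grd genes. Domain and prefix are thus mixed in this comparison. Gene span was not matched between the classes either. Of all genes spanning up to 1329 base pairs, 31.2% were higher on preparation 1, and of those from 3747 base pairs 60.7% were. The 2 classes were not tested against each other.

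On the receptor side, ptr-18 had the highest ratio and ptc-1 and ptr-23 the lowest, again without a call. Of 21 ptr genes, 0 passed limma in either direction, where 1.50% of all genes were lower and 0.365% higher. At an unadjusted p under 0.05, 1 was lower and 1 higher, where 1618 and 1150 of all 14777 genes were. The gene ptr-18, whose protein clears hedgehog-related proteins and keeps progenitor cells of newly hatched larvae quiescent, was at 2.96 on preparation 1 and 1.97 on preparation 2 (mean 2.47 ± 0.70, 5.53-fold, limma adjusted p = 0.0647). It was the single ptr gene at least 2-fold above the reference on both arrays. With each array centred on its median it passed (limma adjusted p = 0.0448), as it did after quantile normalization (limma adjusted p = 0.0280) and after correction for gene span (limma adjusted p = 0.0273).

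The Patched gene ptc-1, needed for cell division in the germ line, was at -0.97 on preparation 1 and -1.97 on preparation 2 (mean -1.47 ± 0.71, limma adjusted p = 0.184). It was read by 1 probe. Across all prefixes, 1 probe assigned to several genes including a member, not necessarily ptc-1, was left out. The gene ptr-23 was at -0.47 and -2.45 (mean -1.46 ± 1.40, limma adjusted p = 0.261). The gene ptr-24 was at -0.16 and -1.01 (mean -0.59 ± 0.60, limma adjusted p = 0.493), and ptr-25 at -0.82 and -0.12 (mean -0.47 ± 0.49, limma adjusted p = 0.568). All 4 were below the reference on both arrays, but the ptr genes among them were picked as the lowest with 1 sign on both. Of all 21 ptr genes, 5 were below 0 on both arrays, where 30.8% of all genes were. In the germ cell marker list all 17 measured genes were below 0 on both arrays (medians -2.59 and -2.62). By limma 8 of the 17 were lower, where 1.50% of all genes were. The part of this list in the values of the 4 genes was not tested.

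Among the other ptr genes above 0 on both arrays, ptr-14 was at 1.93 and 0.16 (mean 1.05 ± 1.25, limma adjusted p = 0.353). The gene ptr-4, required for the apical extracellular matrix and molting, was at 1.37 and 0.01 (mean 0.69 ± 0.96, limma adjusted p = 0.477). The genes ptr-17 (1.23 and 0.11) and ptr-13 (0.26 and 0.74) completed this group. Apart from ptr-13, their height came from preparation 1.

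Of the 21 ptr genes, 11 lay on opposite sides of the reference in the 2 preparations, as did 4751 of all 14777 genes. The gene ptr-16 was at 1.86 on preparation 1 and -0.60 on preparation 2 (limma adjusted p = 0.623), and ptr-1 at 1.58 and -0.73 (limma adjusted p = 0.734). The gene ptr-2 was at 0.20 and -1.66, ptr-3 at 1.17 and -0.58, and ptr-11 at 1.14 and -0.27. Smaller crossings in the same direction were those of ptr-6 (0.60 and -0.53), ptr-5 (0.70 and -0.24), ptr-8 (0.23 and -0.44), ptr-15 (0.55 and -0.07) and ptr-10 (0.38 and -0.14), the last a gene of glial cells. The gene ptr-19 ran the other way, at -0.59 and 0.23, and its 2 probes disagreed in sign on preparation 2 (0.79 and -0.33). The genes ptr-12 (-0.06 and -0.40) and ptr-9 (-0.11 and -0.12) stayed just below 0.

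**Figure D3:**
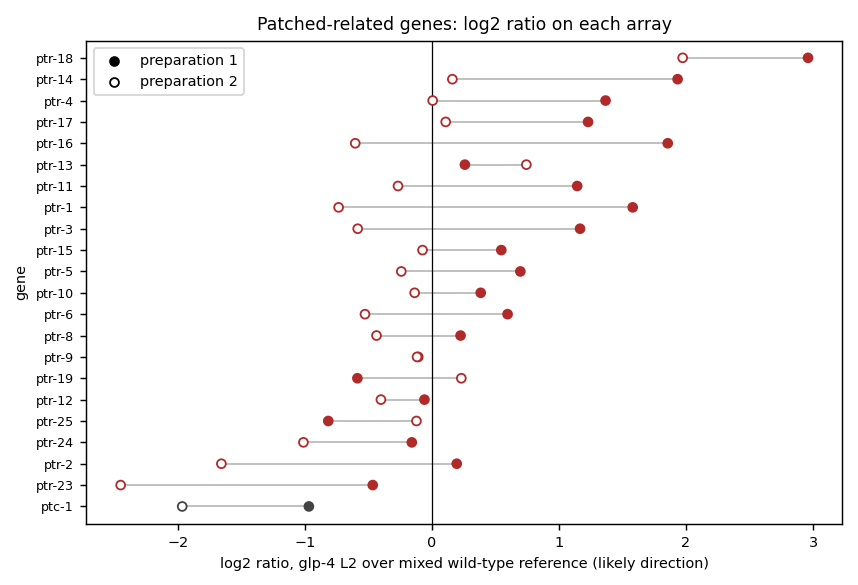
Log2 ratio (x axis, likely glp-4 L2 over reference) of each of the 21 ptr genes and ptc-1 (y axis, by prefix and mean), with a filled point for preparation 1 and an open point for preparation 2. The filled point lies to the right of the open one in 18 of the 21 ptr genes and in ptc-1.

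The prefixes were then set side by side. The median of the mean log2 ratio was 0.14 for grl, 0.67 for grd, -0.03 for wrt and 0.23 for ptr, against 0.08 for all genes. Single arrays moved them: on preparations 1 and 2 the medians were 0.18 and -0.08 for grl, 0.91 and 0.22 for grd, 0.31 and -0.36 for wrt, and 0.55 and -0.24 for ptr, so that the sign of all but grd depended on the array. After correction for gene span the grl median was 0.04, and among genes with 1 probe only the wrt median was 0.09. The medians over both arrays are closer to each other than the members of a single prefix are, since grl means ran from -3.24 to 2.76, grd means from -2.19 to 2.34, wrt means from -1.30 to 1.34 and ptr means from -1.46 to 2.47. All members called by limma were grl genes. Differences between prefixes were not tested.

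The prefixes also differed in how the 2 preparations compared. Of 69 members, 47 had a higher ratio on preparation 1 than on preparation 2, where 49.7% of all genes had. By prefix these were 18 of 21 ptr genes, 8 of 9 wrt genes, hog-1, qua-1 and ptc-1, but 11 of 23 grl and 7 of 13 grd genes. The median difference of preparation 1 minus preparation 2 was 0.99 for ptr, 1.14 for wrt, 0.17 for grd and 0.00 for grl, against -0.004 for all genes. A ratio above 0 on preparation 1 and below 0 on preparation 2 was found for 10 of 21 ptr genes and 6 of 9 wrt genes, where 18.3% of all genes had it, and for 3 of 23 grl and 0 of 13 grd genes. With 1 array per preparation this difference has no replicate check and no test.

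**Figure D4:**
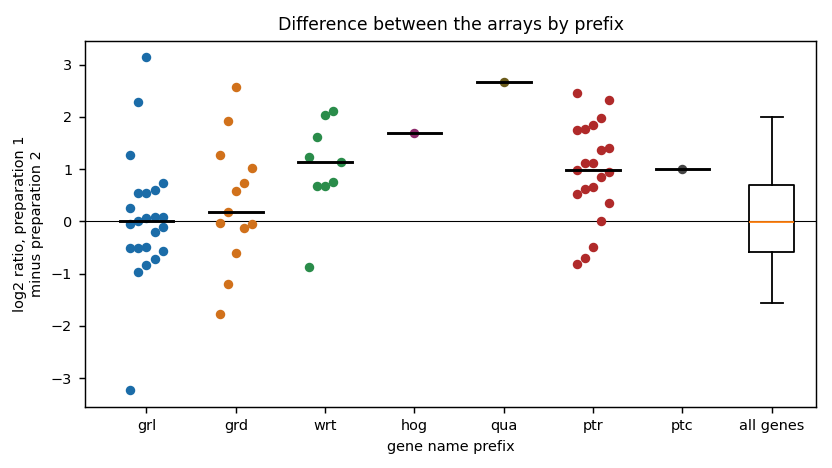
Difference in log2 ratio, preparation 1 minus preparation 2 (y axis), for each member by prefix (x axis), with a black bar at the prefix median and, at the right, a box for all 14777 genes with whiskers from the 5th to the 95th percentile. The ptr and wrt medians are 0.99 and 1.14, whereas those of grl and grd are 0.00 and 0.17.

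Other measures moved with this difference. Of 18 epidermal and seam cell markers measured, 15 were higher on preparation 1, with list medians of 0.66 on preparation 1 and -0.35 on preparation 2 and a range of -3.06 to 3.40 and of -1.79 to 3.24. The nuclear receptor genes nhr-23 (0.90 and -0.48) and nhr-25 (1.17 and -0.39), both required for molting, and the cuticle collagen gene rol-6 (2.34 and -0.02) were among them. The other 3 were higher on preparation 2, namely lrp-1 (-3.06 and -1.74), dpy-7 (0.68 and 1.03) and nhr-73 (3.08 and 3.24). Of the 18 markers only nhr-73 passed limma, as higher (limma adjusted p = 0.0335). Of 14 markers of glia and of excretory duct, pore and related tube cells, 10 were higher on preparation 1, with medians of 0.45 and -0.21. Such shifts were not limited to these lists. Of 17 germ cell markers, 11 were higher on preparation 1, with a median difference of 0.30. The sperm protein genes went the other way, with 2 of 30 higher on preparation 1 and a median difference of -1.13. Gene span moved with the difference between preparations as well. The ptr genes are long, with a median span of 5538 base pairs, against 1384 for grl and 2139 for all genes. Among the 4069 genes that span at least as much as the shortest ptr gene, 60.6% were higher on preparation 1, with a median difference of 0.30. Among the 10708 shorter genes 45.6% were, with a median difference of -0.09. For genes spanning up to 1329 base pairs these values were 31.2% and -0.36. After correction for span, 17 of 21 ptr and 8 of 9 wrt genes were higher on preparation 1, with median differences of 0.71 and 0.89. So were 9 of 13 grd and 12 of 23 grl genes, with median differences of 0.40 and 0.004. Of all genes, 51.8% were then higher on preparation 1, with a median difference of 0.039. The median difference of grd thus moved from its uncorrected 0.17 toward those of ptr and wrt under this correction, and it was -0.025 after quantile normalization. The part of the marker lists in the difference was not tested.

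**Figure D5:**
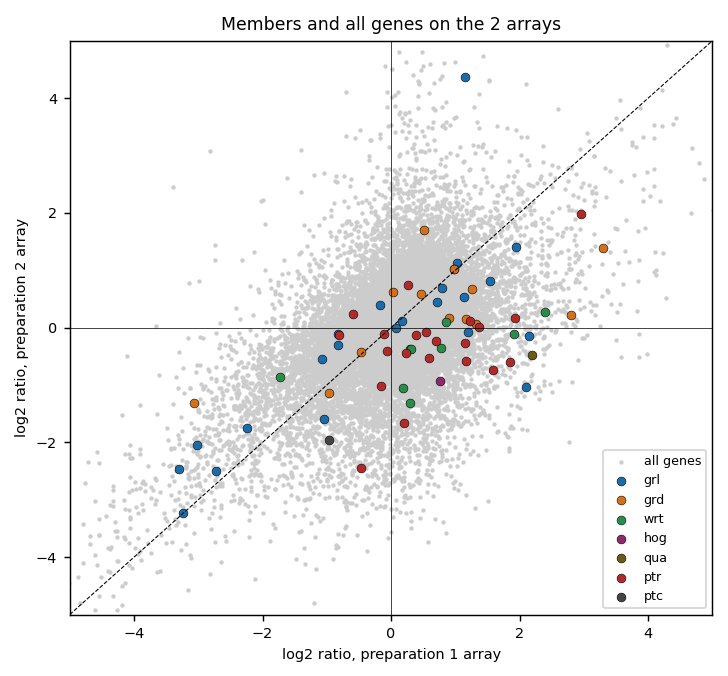
Log2 ratio on the preparation 1 array (x axis) against the preparation 2 array (y axis) for all genes (grey) and the 69 members (coloured by prefix), with the line of equal values dashed. Axes stop at 5 in either direction, which leaves out 63 genes and no member. The lowest grl genes lie near the dashed line at the lower left, and most ptr and wrt genes lie below the line.

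Members that neighbour each other in the genome differed in some pairs and were alike in others. On chromosome V, grl-9 and grl-8 are adjacent protein-coding genes, and grl-9 was at -2.72 and -2.51, whereas grl-8 was at -0.17 and 0.40. On chromosome X, grd-14 and grd-4 are adjacent, with grd-4 placed by its symbol, and had means of 2.34 and -2.19. The genes wrt-8 and wrt-7, with 2 genes between them on chromosome V, had means of 1.34 and -1.30. In contrast, the adjacent genes grd-3 and grd-10 on chromosome IV were both above 0 on both arrays, and wrt-1 and wrt-10 on chromosome II were both above 0 on preparation 1 and below 0 on preparation 2. The genes grl-28 and grl-29, on chromosome V with 1 gene between them, had means of -0.47 and 0.99.

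Of 20 other genes listed for hedgehog-type signalling and sterol-sensing domain proteins, 16 were measured. By limma 0 passed in either direction, where 1.50% of all genes were lower and 0.365% higher. At an unadjusted p under 0.05, 4 were lower and 1 higher, where 1618 and 1150 of all 14777 genes were. The highest of the 16 was ncr-2, a homologue of the cholesterol transporter NPC1. It was at 2.06 on preparation 1 and 2.19 on preparation 2 (mean 2.12 ± 0.09, limma adjusted p = 0.0678). Its paralogue ncr-1 was at -1.73 and -1.07 (mean -1.40 ± 0.46, limma adjusted p = 0.176). The lowest was lrp-1, a megalin homologue required for molting, at -3.06 and -1.74 (mean -2.40 ± 0.93, limma adjusted p = 0.0828). Both ncr-2 (limma adjusted p = 0.0361) and lrp-1 (limma adjusted p = 0.0436) passed after quantile normalization. The F-box gene lin-23 was at -0.99 and -2.77 (mean -1.88 ± 1.26, limma adjusted p = 0.170) and ptd-2, of the Dispatched and Patched-domain type, at 0.62 and 1.14 (mean 0.88 ± 0.37, limma adjusted p = 0.311). The Dispatched homologue che-14 (0.07 and -0.44) and the patched-related glial gene daf-6 (0.45 and -0.35) lay above 0 on preparation 1 and below 0 on preparation 2, as 10 of the 21 ptr genes did. Of the 16 measured genes of this list, 5 crossed in this way, where 18.3% of all genes did. On preparation 1, 9 of the 16 were higher than on preparation 2, where 49.7% of all genes were.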

How the data were processed

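The deposited table holds a log2 ratio of the channels for each probe. The scale was read from the values, since the unlogged ratios fell on steps of 0.001 (tolerance 0.002 of a step) for 99.1% of preparation 1 and 98.8% of preparation 2 values. The sources used here give no dyes, direction, background correction or scaling, and signal over background is not known without intensities. The column medians were 0.043 and 0.013. Of 21632 probes, GEO's platform annotation gave 1 gene to 16450, several to 247 and none to 4935. Current names came from RefSeq's WBcel235 gene table by Entrez ID (67 of 69 members matched, and grd-4 and grd-6 by symbol). Probes of a gene were averaged per array (75 member probes, 6 members with several). Each gene's mean was tested against 0 by limma 3.58.1 (R 4.3.3; intercept model, eBayes) with 1 residual degree of freedom and a prior of 4.5, after a check on simulated data. The test leaves out the spread of the reference itself, and its p-values measure the spread between 2 hybridisations, which may be technical. Alternatives were centring, quantile normalization, limits on ratios, probe handling, robust eBayes, gene span and leaving out each array. Named genes were those past the threshold, the 3 highest and lowest per prefix with 1 sign on both arrays, those with the largest array difference, and hog, qua and ptc genes. The other members are given by their values, and ncr-1, che-14, daf-6, nhr-23, nhr-25 and rol-6 were singled out after their values were seen. The members and lists were chosen with earlier results of these data known. Protein and promoter sequences were not used here.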

Additional observations from a re-analysis of the deposited data

How the results depend on the processing

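Members lower by limma numbered 3, against 1 with log2 ratios limited to 5 (grl-20), 1 of 63 among genes with 1 probe only (grl-20), and 5 after gene span correction (adding grl-3 and grl-23). They numbered 4 with centred arrays and after quantile normalization (adding grl-3). Members higher numbered 0, against 1 (ptr-18) with centred arrays, quantile normalization and span correction. Of the other pathway genes 0 passed, against 1 lower and 1 higher after quantile normalization and 1 higher after span correction. Over all genes, 221 were lower and 54 higher, against 377 and 90 centred, 447 and 158 after quantile normalization, 115 and 25 with limited ratios, and 398 and 114 after span correction. With 1 probe only, 34 of 13330 were higher. The cause of these shifts was not tested. Taking the median of probes or robust eBayes changed no member call. On single arrays, where no residual degree of freedom is left for a test, the medians ranged from -0.077 to 0.178 for grl, 0.22 to 0.908 for grd, -0.365 to 0.312 for wrt and -0.241 to 0.546 for ptr. No named gene changed sign under the alternatives that keep both arrays. The counts of members higher on preparation 1, whose alternatives were added after seeing the data, were within 1.5 times of the values given. No paired analysis was possible because the 2 arrays form 1 group.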

Other observations

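The prefixes were spread unevenly over the chromosomes, although grl, grd, wrt and ptr each had genes on IV, V and X. Of 23 grl genes, 15 were on chromosome V, as were 7 of 13 grd genes and 25.7% of all genes measured. No grl or grd gene was on chromosomes I or II, which held 11 of the 21 ptr genes. Of all genes measured, 13.5% were on chromosome I and 17.8% on II. Across genes, which are not independent replicates and share both arrays and the reference, the Pearson r between the arrays was 0.75 over 23 grl genes, 0.68 over 13 grd genes, 0.67 over 9 wrt genes and 0.47 over 21 ptr genes. Spearman's rho was 0.70, 0.49, 0.87 and 0.21 in the same order, so the order of the prefixes depends on the measure. In the list of adult collagens, col-19 was lower (-3.28 and -3.10, limma adjusted p = 0.0325), and the other 4 measured genes did not pass and ranged from -0.35 to 0.60 in mean log2 ratio.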
